A study of Mus musculus with 2 samples.

Results

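The laminin chains, the integrin subunits and the basement membrane linkers nidogen and perlecan were described in total RNA of mouse gastrocnemius, the large calf muscle. Members were taken by gene symbol, and each had to carry at least 1 protein-coding transcript in the annotation. The rule gave 40 of 55536 annotated genes, namely 11 laminin chains, 18 integrin alpha subunits, 8 integrin beta subunits and 3 linkers. The rule itself used no measured value, but the members were chosen with earlier results of these data known. The tissue came from male B6CASTF1/J mice, the offspring of a C57BL/6J by CAST/EiJ cross, at an age of 14 days, with no treatment. The series held 1 group with 2 libraries, called replicate 1 and replicate 2, each made from 300 ng of RNA spiked with synthetic ERCC transcripts. The labels mention 3 males and give both libraries the same donor identifier. Whether the libraries came from separate animals, a pool or 1 animal is therefore not clear. The p-values set the difference between these 2 libraries against counting error only, and that difference may be technical.

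A laminin is a cross-shaped trimer of an alpha, a beta and a gamma chain, and it forms the polymer layer of the basement membrane that wraps each muscle fibre, capillary and Schwann cell. Nidogens and perlecan tie that layer to the type IV collagen network. Integrins are receptors of an alpha and a beta subunit that hold the cell to the matrix and link it to the cytoskeleton. In muscle fibres the laminin with the alpha2 chain is held by integrin alpha7 beta1 and by dystroglycan, and loss of the alpha2 chain causes congenital muscular dystrophy.

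Replicate 1 gave 40825601 expected counts and replicate 2 gave 37329025, of which the members took 130698 and 113847. A count of 3, taken as the floor of detection, stood for 0.0735 CPM in replicate 1 and 0.0804 CPM in replicate 2, and floors and tests cover counting error only. Muscle fibre markers were at a summed 91829 TPM in replicate 1 and 99455 TPM in replicate 2 over 8 genes, led by the actin gene Acta1. Levels below are in TPM, read abundance scaled by transcript length and by depth, so that genes can be set side by side within a library, and means carry the SD over n = 2 libraries. Since the muscle holds many cell types, fewer cells of a type and less RNA per cell cannot be told apart.

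At least 1 TPM in both libraries was reached by 25 of the 40 genes, and a mean of 5 TPM by 18. Those 18 were 6 of the 11 laminin chains, all 3 linkers, 6 of the 18 integrin alpha subunits and 3 of the 8 beta subunits. The highest level was that of Itgb1, the beta1 subunit shared by most matrix-binding integrins. The mean order then ran from Lamc1, Hspg2, Nid1, Lama2 and Lamb2 down to Lamb1. Neighbours among these 7 were separated within the first quantification, in that both libraries gave the same order and the gap of the means exceeded the sum of the SDs. Part of that order turned in other settings. The second quantification put Nid1 at 93.4 TPM above Hspg2 at 91.9 TPM, and Lamb1 above Lamb2. Over coding transcripts Nid1 at 72.7 TPM was above Hspg2 at 70.7 TPM, and Lama2 at 36.6 TPM was below Lamb2 at 51.5 TPM and Lamb1 at 41.8 TPM. Over the whole order of the first quantification, 16 of 39 neighbouring pairs met this. Among the 18 higher genes the neighbours Lamb1 and Itga7, Itgav and Nid2, Itga6 and Itgb5, Itga5 and Itgb6, and Itgb6 and Lama5 did not.

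**Figure D1:**
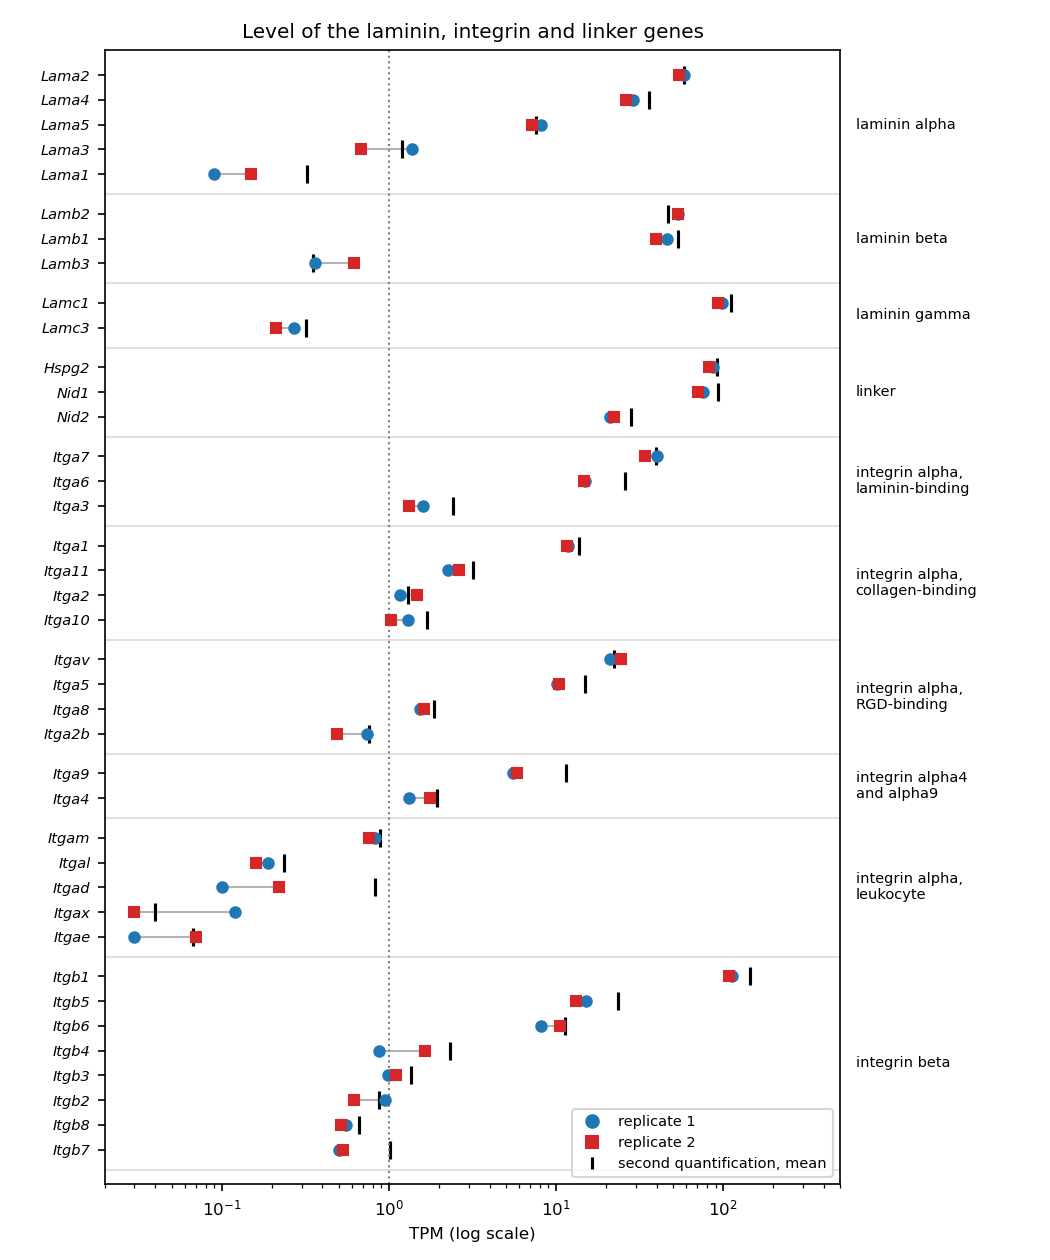
Level of 39 of the 40 genes in TPM (log scale), grouped by role, in replicate 1 (circles) and replicate 2 (squares), with the mean of the second quantification as a black bar and 1 TPM as a dotted line. Itgb1, Lamc1, Hspg2 and Nid1 lie above 70 TPM in both libraries, and the 5 leukocyte alpha subunits lie below 1 TPM.

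Among the laminin alpha chains, Lama2, the chain of the muscle fibre basement membrane, was at 58.0 TPM in replicate 1 and 54.7 TPM in replicate 2. Lama4, a chain of vessel and nerve basement membranes, was at 28.8 and 26.2 TPM. Lama5, found in vessel walls and at the synaptic basement membrane, was at 8.11 and 7.13 TPM. The same order held in both libraries with no overlap. Lama2 thus took 60.8% ± 0.967 of the summed alpha chain TPM, Lama4 29.7% ± 0.275 and Lama5 8.22% ± 0.275 (SD, n = 2 each). Lama3, the alpha chain of epithelial laminin, was at 1.38 and 0.680 TPM. Lama1, a chain of embryonic basement membranes, was near the floor with 14 and 8 counts, or 0.0900 and 0.150 TPM.

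Lamb2, the beta chain that marks the neuromuscular synapse and is also present in vessels, was at 53.4 TPM in replicate 1 and 53.5 TPM in replicate 2. Lamb1, the beta chain found along the whole fibre, was at 46.0 and 39.9 TPM. Lamb2 lay above Lamb1 in both libraries, with a ratio of 1.25 ± 0.127. The order turned in the second quantification of the same libraries, where Lamb2 over Lamb1 was 0.880 ± 0.0152, so these 2 chains have no settled order here. Lamb3, of epithelial laminin, was at 0.360 and 0.620 TPM, with 27 and 33 counts, and overlaps Hsd11b1 and G0s2 on the opposite strand, at 3.14 and 2.95 TPM and at 7.56 and 7.95 TPM. In all quantifications the beta class was shared almost wholly by Lamb1 and Lamb2.

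The gamma class was nearly all Lamc1, the gamma chain of the laminins of muscle, vessels and nerve, at 98.0 TPM in replicate 1 and 93.5 TPM in replicate 2, a share of 96.7% ± 0.330. Lamc3 was at 0.270 and 0.210 TPM. Lama3 and Lamb3 were detected at means of 1.03 and 0.490 TPM. The skin epithelium markers Krt5 and Krt14 were at 0 in both libraries, and the 6 markers of that list summed to 2.41 TPM in replicate 1 and 2.15 TPM in replicate 2, mostly Krt10.

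A trimer holds equal numbers of alpha, beta and gamma chains. The summed RNA levels of the classes lay close together. In replicate 1 and replicate 2 the alpha chains summed to 96.4 and 88.9 TPM, the beta chains to 99.7 and 94.1 TPM and the gamma chains to 102 and 96.4 TPM. The ratio of alpha to gamma was 0.936 ± 0.0193 and that of beta to gamma 0.979 ± 0.00414. In the second quantification these ratios were 0.888 ± 0.0796 and 0.870 ± 0.0722, and that of alpha to beta was 1.02 ± 0.00684. The near equality rested in part on transcript models that encode no protein. Counting only transcripts annotated as protein-coding, the alpha sum was 63.4 ± 4.38 TPM, the beta sum 93.5 ± 3.39 TPM and the gamma sum 83.0 ± 4.74 TPM, so alpha over beta was 0.678 ± 0.0222 in place of 0.956 ± 0.0157.

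Perlecan, nidogen 1 and nidogen 2 were all well above 5 TPM. Hspg2, which encodes the heparan sulfate proteoglycan perlecan, was at 87.3 TPM in replicate 1 and 82.7 TPM in replicate 2. Hspg2-201 is 14187 bases long, and the gene held 25.9% and 25.2% of the members' counts, more than any other member. Nid1, the main nidogen of most basement membranes, was at 76.2 and 70.8 TPM, and Nid2, its paralogue, at 21 and 22.2 TPM. Nid1 exceeded Nid2 by 3.41 ± 0.309 times, and by 3.33 ± 0.221 times in the second quantification. Nidogens bind the gamma1 chain, and the summed nidogens stood to Lamc1 as 0.993 ± 0.00280 in the first quantification. That ratio was 1.09 ± 0.0207 in the second quantification and 1.11 ± 0.0123 over coding transcripts. Hspg2 stood to Lamc1 as 0.887 ± 0.00430. Nid2 overlaps Rtraf on the opposite strand, which was at 30.7 and 31.4 TPM, and whether the counting used strand is not given in the sources used here.

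**Figure D2:**
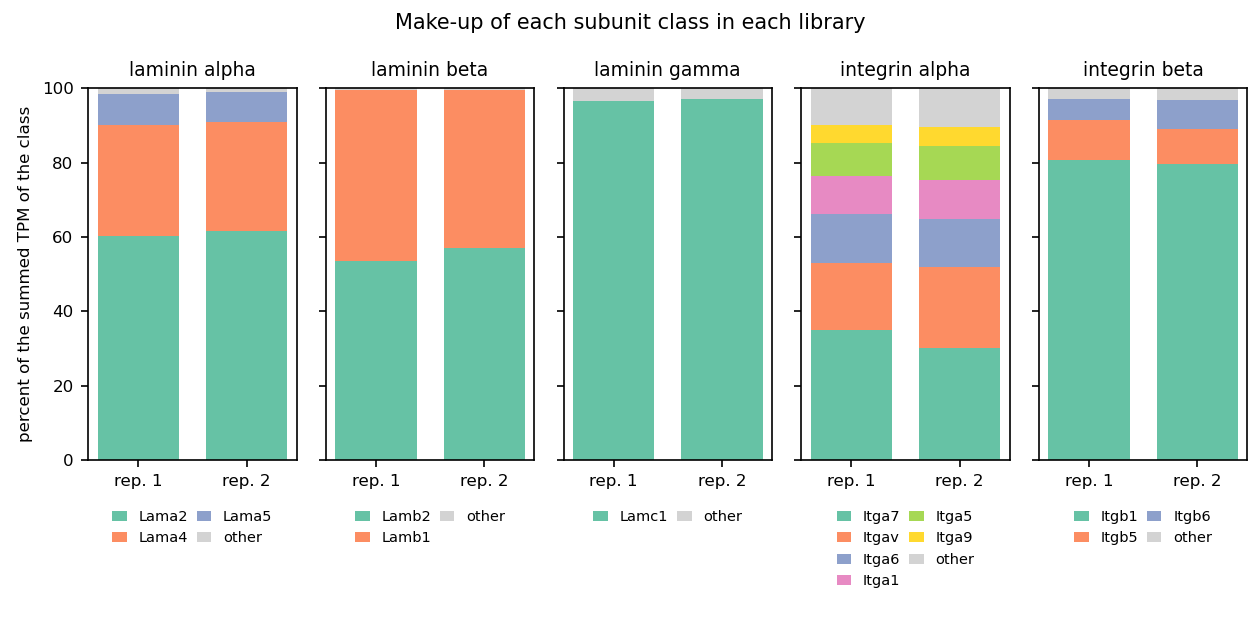
Share of each gene in the summed TPM of its class (percent), as stacked bars for replicate 1 and replicate 2, with genes under a mean of 4% pooled as other. Lama2, Lamc1, Itga7 and Itgb1 are the largest segments of their classes in both libraries, while Lamb2 and Lamb1 split the beta chains.

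The laminin-binding alpha subunits were led by Itga7, the main laminin receptor subunit of mature muscle fibres. It was at 40 TPM in replicate 1 and 33.9 TPM in replicate 2, and took 32.5% ± 3.39 of the summed alpha subunit TPM. Itga6, a laminin receptor subunit of endothelium, Schwann cells and muscle precursors, was at 15.0 and 14.7 TPM, and averaged 25.8 TPM in the second quantification. Itga3, a laminin receptor subunit of many epithelia, was at 1.59 and 1.32 TPM, against a mean of 2.41 TPM in the second quantification. Itga7 over Itga6 was 2.48 ± 0.263 and was above 1 in both quantifications, but its size depended on the models used, at 1.54 ± 0.221 in the second quantification and 3.96 ± 0.521 over coding transcripts.

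Of the collagen-binding alpha subunits, Itga1, which prefers type IV collagen, was the highest at 11.8 TPM in replicate 1 and 11.6 TPM in replicate 2. Itga11, a receptor subunit for fibrillar collagen on fibroblasts, was at 2.26 and 2.64 TPM. Itga2 was at 1.16 and 1.47 TPM and Itga10, known from cartilage, at 1.30 and 1.03 TPM. All 4 thus passed 1 TPM in both libraries, and the order of Itga2 and Itga10 changed between them. Itga1 overlaps Pelo on the same strand, which was at 4.58 and 4.57 TPM.

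The alpha subunits that bind the RGD motif of fibronectin, vitronectin and other ligands were led by Itgav, the partner of several beta subunits. Itgav was at 20.9 TPM in replicate 1 and 24.4 TPM in replicate 2, and Itga5, of the classical fibronectin receptor, at 10.2 and 10.4 TPM. Itga8 was at 1.54 and 1.61 TPM. Itga2b, a platelet subunit, was at 0.740 and 0.490 TPM with 25 and 22 counts, and of its TPM 9.46% and 22.4% came from coding transcripts. Of 6 platelet markers only Pf4 passed 1 TPM, at 8.44 and 8.83 TPM, and Gp9 was at 0. Itga9, a receptor subunit for tenascin and VCAM1, was at 5.55 and 5.81 TPM, and averaged 11.5 TPM in the second quantification. Itga4, a receptor subunit for fibronectin and VCAM1 on leukocytes and muscle precursors, was at 1.32 and 1.77 TPM.

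The 5 leukocyte alpha subunits had means between 0.05 TPM for Itgae and 0.795 TPM for Itgam, the subunit of the macrophage receptor Mac-1. Their partner Itgb2 was at 0.950 TPM in replicate 1 and 0.620 TPM in replicate 2. Itgax had 3 counts in each library and Itgad 1 and 2, so both were at or under the floor. Neither reached the summed count of 10 needed for testing. The 8 macrophage markers summed to 42.4 and 40.5 TPM, and the 8 lymphocyte markers to 0.610 and 0.790 TPM with none at 1 TPM in both. Itgad overlaps the muscle gene Cox6a2 on the opposite strand, which was at 539.7 and 552 TPM.

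The beta class was dominated by Itgb1 at 113 TPM in replicate 1 and 109 TPM in replicate 2, a share of 80.1% ± 0.876. Itgb5, a partner of the alphav subunit that binds vitronectin, was at 15.1 and 13.2 TPM, and averaged 23.5 TPM in the second quantification. Itgb6, whose product is best known from epithelia as an activator of TGF-beta, was at 8.17 and 10.5 TPM. Itgb4, the laminin receptor subunit of hemidesmosomes, Schwann cells and perineurium, was at 0.870 and 1.64 TPM, and averaged 2.33 TPM in the second quantification. Itgb3, of the alphav and platelet receptors, was at 0.990 and 1.10 TPM. Itgb2, Itgb7 and Itgb8 were below 1 TPM in both libraries. The alpha subunits known to pair with beta1 summed to 113 TPM in replicate 1 and 111 TPM in replicate 2, against Itgb1 as 1.01 ± 0.0166. That ratio was 0.971 ± 0.0335 in the second quantification and 0.869 ± 0.0229 over coding transcripts. The sum counts all of Itgav, at 20.9 TPM in replicate 1 and 24.4 TPM in replicate 2, although Itgav also pairs with other beta subunits. The ratio therefore depends on which subunits are counted.

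Itgb1, Itga7 and Itga6 each have annotated forms that differ by a short exon. These exons are shown because they set the cytoplasmic tail or the extracellular region of the receptor. They were read from the GENCODE M21 transcripts on GRCm38, plus strand, 5′ to 3′. Capitals at the start of the A exons mark the first 12 bases, which Itga7 and Itga6 share, and capitals at the end of the Itgb1 D exon and the Itga6 A exon mark the stop codon, after which the exon is not printed.
Itgb1 D exon, chr8:128726983-128727057: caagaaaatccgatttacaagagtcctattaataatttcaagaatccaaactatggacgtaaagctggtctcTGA
Itga7 A exon, chr10:128956611-128956723: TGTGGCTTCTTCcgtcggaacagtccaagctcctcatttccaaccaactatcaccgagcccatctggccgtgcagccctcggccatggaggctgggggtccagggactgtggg
Itga6 A exon, chr2:71853534-71853641: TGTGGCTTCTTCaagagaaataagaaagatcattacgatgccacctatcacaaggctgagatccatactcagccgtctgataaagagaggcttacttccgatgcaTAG
Itga7 X1 exon, chr10:128941445-128941576: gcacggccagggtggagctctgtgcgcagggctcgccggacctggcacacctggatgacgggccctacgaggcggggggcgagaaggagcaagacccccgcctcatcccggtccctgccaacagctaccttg
Itga7 X2 exon, chr10:128941822-128941941: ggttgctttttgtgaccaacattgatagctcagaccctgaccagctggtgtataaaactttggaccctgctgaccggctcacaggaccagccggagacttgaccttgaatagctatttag

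The beta1D tail, the striated muscle form of integrin beta1, is encoded by the D exon printed above, an exon of 81 bases. In these annotations it lies in Itgb1-204, a model of 711 bases that is incomplete at its 5′ end. Itgb1-204 took 23.8% of the gene's TPM in replicate 1 and 27.4% in replicate 2, with 527 and 546 counts. Itgb1-201, the full-length model with the widely expressed A tail, took 75.3% and 71.8%. The second quantification gave 23.6% and 27.5% to Itgb1-204, so the mean was 25.6% in both, with an SD of 2.58 in the first and 2.71 in the second. As the 3815 bases of Itgb1-201 and the short model are not fully distinct, this is the quantifiers' division of shared reads and not a count of reads over the D exon.

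The alpha7 subunit has A and B cytoplasmic tails and alternative X1 and X2 exons in its extracellular part. Itga7-201, with the X2 exon and the B tail, was the leading form at 51.4% of the gene's TPM in replicate 1 and 52.4% in replicate 2. Itga7-204, a partial model of 984 bases with the A exon, took 35.3% and 33.7%, and Itga7-202, with the X1 exon and the B tail, took 6.92% and 10.7%. Between the X1 and X2 models, which are of nearly equal length at 4020 and 4013 bases, X1 took 14.4% ± 3.60, and 15.5% ± 3.11 in the second quantification. The A form was given less by the second quantification, 22.8% ± 0.282 against 34.5% ± 1.11. The X1 exon has a GC content of 70.5% and the X2 exon one of 49.2%.

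The forms of Itga6 were not settled between the quantifications. Itga6-201, with the A exon, took 42.4% in replicate 1 and 57.4% in replicate 2, and Itga6-202, with the B tail, 14.2% and 3.80%. In the second quantification Itga6-201 took 22.2% and 24.6% and Itga6-202 took 23.6% and 18.8%. Within the pair the A form was therefore 84.4% ± 13.3 in the first quantification and 52.6% ± 5.76 in the second. A model without a reading frame, Itga6-203, held 40.1% and 37.3% of the gene's TPM in the first quantification. For Itgb6, Itgb6-201 held 44.4% and 42.0% and Itgb6-202 held 49.6% and 52.3%, while the second quantification gave more to Itgb6-202, at 63.6% ± 1.14.

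**Figure D3:**
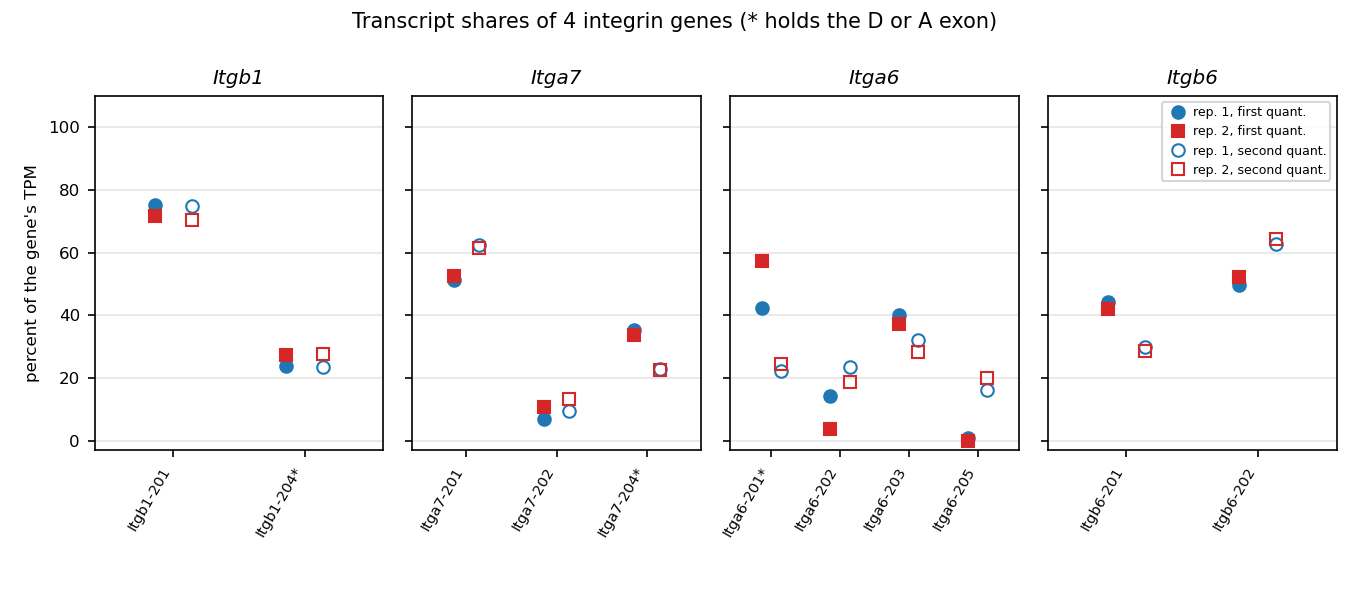
Share of each named transcript in the TPM of its gene (percent) for 4 integrin genes, with replicate 1 as circles and replicate 2 as squares, filled for the first quantification and open for the second; an asterisk marks models that hold the D or A exon. Itgb1-204 lies between 23.6% and 27.5% in all 4 estimates, whereas Itga6-201 spreads from 22.2% to 57.4%.

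Transcripts averaging 10% or more of their gene in either quantification numbered 46 over the 18 higher genes, of 212 annotated transcripts of the members. Of these, 30 were annotated as protein-coding, 8 as processed transcripts, 7 as retained introns and 1 as subject to nonsense-mediated decay. Nid1 and Lamb1 were nearly single-form genes, with 98.9% ± 0.626 in Nid1-201 and 96.5% ± 1.43 in Lamb1-201. Hspg2 split between Hspg2-203 at 44.2% ± 1.93 and Hspg2-201 at 38.9% ± 0.853. Lama2 gave 66.0% and 63.8% of its TPM to coding transcripts, Lama5 52.7% and 47.3%, Itga1 57.0% and 54.8% and Itga6 57.8% and 62.0%. In Lama2 the full-length Lama2-201 took 46.3% ± 1.67 and the retained-intron model Lama2-204 took 21.9% ± 0.966. Lamc1 gave 80.3% ± 0.395 to Lamc1-201 and 13.8% ± 2.51 to Lamc1-205, the model marked for nonsense-mediated decay. Itgav gave 49.8% ± 0.473 to the full-length Itgav-201, and 22.5% ± 0.744 and 24.3% ± 1.39 to the coding models Itgav-205 and Itgav-206, of 463 and 688 bases. The second quantification put Itgav-205 at 3.67% ± 5.19. Itgb5-202 took 84.3% ± 7.18 of its gene in the first quantification and 39.1% ± 4.31 in the second. Many of these models are short, so few reads weigh much: Lamb2-206, of 345 bases, took 26.0% ± 4.98 of the Lamb2 TPM on 94.6 and 117 counts, and was at 0 in the second quantification.

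Some members lie side by side in the genome on the same strand. Itga2 and Itga1 are 21 kb apart on chromosome 13 and had means of 1.31 and 11.7 TPM. Itgam, Itgax and Itgad lie within a cluster on chromosome 7, with gaps of 11.1 and 3.72 kb, and all had means under 1 TPM.

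With no second condition, the only test across samples was whether the 2 libraries differed beyond counting error. A two-sided exact binomial test on counts scaled by TMM, adjusted over all 17245 genes tested, called 12 of the 38 members with at least 10 counts, of which 7 were higher in replicate 1 and 5 in replicate 2. The same test called 21.3% of all genes, with 10.7% higher in replicate 1 and 10.6% in replicate 2. Calls depend on depth: of genes with at least 1000 counts 38.3% were called, against 8 of the 18 members of that depth. The median absolute log2 ratio, on log2(TPM + 1), was 0.15 over the 28 members averaging 1 TPM or more and 0.13 over the 12156 genes of all kinds at that level. The common coefficient of variation beyond counting error was 0.119 by edgeR, over the 14965 genes that it kept.

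Those higher in replicate 1 were Itgb1, Hspg2, Lama2, Lamb1, Itga7, Lama5 and Lama3. For the first 6 the ratio of scaled counts, replicate 1 over replicate 2, ran from 1.04 for Itgb1 to 1.21 for Lama5. Those higher in replicate 2 were Itgav, Itgb6, Itga11, Itga4 and Itgb4, with ratios of replicate 2 over replicate 1 from 1.15 for Itgav to 1.55 for Itgb4. The authors also deposited an interval around each TPM. Among the called members, the intervals of the libraries did not overlap for Lamb1, Itga7 and Lama3 and overlapped for the rest. Of the 11 laminin chains tested, 4 were called, all higher in replicate 1. Of the 24 integrin subunits tested, 2 were called higher in replicate 1 and 5 in replicate 2. The test called 10.7% of all genes higher in replicate 1 and 10.6% in replicate 2. The difference between the classes was not tested. The calls of Itgb1 and Itga7 were lost in the second quantification, at log2 ratios of 0.05 each, and a call of Lamc3 as higher in replicate 1 was gained there, at 0.83 against 0.50. Scaling by the ERCC RNAs moved the median log2 ratio of all genes from 0.01 to 0.30. It called 52.5% of all genes, 50.8% toward replicate 1 and 1.72% toward replicate 2, against 19 and 2 members. Under that scaling Itgav turned to 0.09 and Itga11 and Itga4 lost their calls.

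Differences of over 1.5 times were called for 2 members, where the test called such a difference for 5.04% of all genes. Lama3 had 373 counts in replicate 1 and 194 in replicate 2, a ratio of 1.73 in scaled counts (adjusted p = 5.4e-09, exact binomial test). Itgb4 had 155 counts in replicate 1 and 217 in replicate 2, or 1.55 times more in replicate 2 (adjusted p = 2.8e-04, exact binomial test). The Schwann cell markers were higher in replicate 2 too by their sum, at 126 TPM in replicate 1 and 172 TPM in replicate 2. Of these 8 markers, 4 were called in that direction and none in the other, where 10.6% of all genes were called higher in replicate 2. Mbp, a myelin protein, was at 20.9 and 30.3 TPM. The 5 perineurium markers include Itgb4 itself. Of the others, Slc2a1 was called higher in replicate 2, at 2.16 and 2.59 TPM, Cldn1 at 1.54 and 1.66 TPM and Perp at 0.620 and 0.50 TPM were not called, and Lypd2, with 2 and 5 counts, was not tested. The part of the nerve in the Itgb4 difference was not tested.

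**Figure D4:**
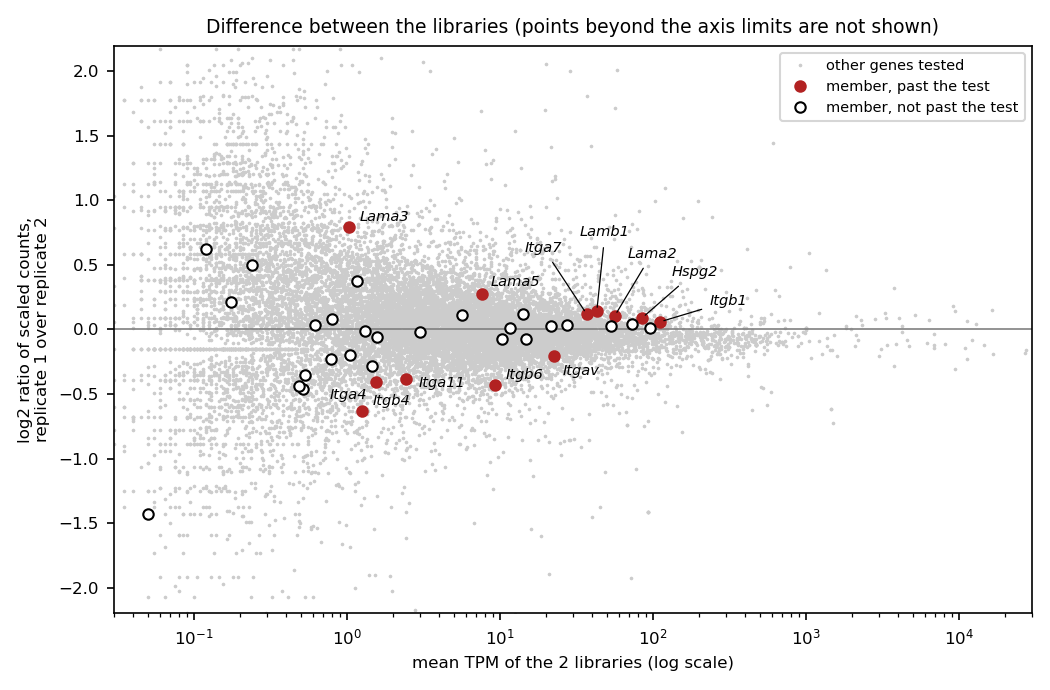
Log2 ratio of TMM-scaled counts, replicate 1 over replicate 2, against the mean TPM (log scale) for all genes tested (grey), for the 12 members past the test (red, named) and for the other members tested (open circles). Lama3 lies highest and Itgb4 lowest among the named genes, at 0.79 and -0.63.

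By summed TPM, endothelial and fibroblast markers were higher in replicate 1, as were the called laminin chains. The chains Lamc1, Lamb2 and Lama4 were not called, at log2 ratios of scaled counts of 0.01, 0.02 and 0.03. Of all genes, 10.7% were called higher in replicate 1 and 10.6% in replicate 2. Endothelial markers summed to 204 TPM in replicate 1 and 174 TPM in replicate 2, with 5 of 8 called higher in replicate 1 and none in replicate 2. Fibroblast markers summed to 1931 TPM and 1426 TPM, mostly Col1a1, with 4 of 8 called higher in replicate 1 and none in replicate 2. Satellite cell markers summed to 49.6 and 36.5 TPM, with Chodl, Calcr and Sdc4 of 6 called higher in replicate 1. Most of that sum was Sdc4, at 32.8 and 23.2 TPM, which is also listed as a laminin receptor, while Pax7 at 1.46 and 1.74 TPM and Vcam1 at 2.38 and 2.69 TPM were not called. Of 8 muscle fibre markers, 2 were called higher in replicate 1 and 6 in replicate 2, and of 8 smooth muscle and pericyte markers 2 in each direction. Their part in the laminin differences was not tested.

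Other components of the basement membrane were measured beside the members. All 19 genes of that list were detected and 15 reached 1 TPM in both libraries. The test called 6 higher in replicate 1 and 4 in replicate 2. In either direction it called 21.3% of all genes and 38.3% of those with at least 1000 counts. The median log2 ratio of scaled counts was 0.05, against 0.01 over all genes tested. On log2(TPM + 1) the medians were 0.14 and 0.04 over genes averaging 1 TPM or more. Sparc, a collagen-binding matricellular protein, was at 736 TPM in replicate 1 and 593 TPM in replicate 2. Col4a1 and Col4a2, which form the common type IV collagen, were at 332 and 300.1 TPM and at 144 and 125 TPM, and Col15a1, a collagen of the basement membrane zone, at 95.6 and 103 TPM. Smoc1, a matricellular calcium-binding protein, was at 0.320 and 0.560 TPM and was 1.85 times higher in replicate 2 by scaled counts.

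All 15 receptors and receptor-complex genes for laminin other than integrins reached 1 TPM in both libraries. The test called 5 higher in replicate 1 and 3 in replicate 2, with a median log2 ratio of scaled counts of 0.06. The shares called over all genes were 21.3%, and 38.3% at 1000 counts or more. Dag1, the gene of dystroglycan, was at 105 TPM in replicate 1 and 94.0 TPM in replicate 2, below Itgb1 in both libraries. The sarcoglycan gene Sgca was at 90.6 and 92.8 TPM. Rpsa, a ribosomal protein also described as a laminin receptor, was the highest at 250.2 and 261 TPM.

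Of 34 genes for integrin activators and the adhesion complex, 31 reached 1 TPM in both libraries. The test called 9 higher in each library of the 33 tested, with a median log2 ratio of scaled counts of 0.05. The shares called over all genes were 21.3%, and 38.3% at 1000 counts or more. Plec, which encodes the cytoskeletal linker plectin, was at 249.9 TPM in replicate 1 and 235 TPM in replicate 2. Nrap, of the muscle-tendon junction and forming myofibrils, was at 228 and 237 TPM, and Itgb1bp2, the gene of the beta1-binding protein melusin, at 207 and 209.8 TPM. Flnc, the muscle filamin, was at 120.4 TPM in replicate 1 and 169 TPM in replicate 2, or 1.51 times higher in replicate 2 by scaled counts. Tln2, the talin form of mature muscle, was at 46.6 and 41.7 TPM and the widely expressed Tln1 at 30.5 and 29.7 TPM.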

How the data were processed

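Total RNA of 2 gastrocnemius libraries was quantified by the authors on mm10 and GENCODE M21, per the labels and a deposited description, with tools not given in the sources used here. Their deposited gene and transcript tables, from reads aligned to the transcriptome, hold expected counts (estimated reads, not normalised) and TPM normalised by the authors over every entry of a table, ERCC RNAs among them. A second transcript table, made by the authors from the reads and an index, holds estimated counts and TPM and was summed per gene. The reference is not specific to CAST alleles.

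Expected counts were rounded for tests. Library differences used a two-sided exact binomial test with library sizes scaled by TMM (edgeR 4.0.16 in R 4.3.3), on genes with a summed count of at least 10, with Benjamini-Hochberg adjustment across the tested genes and a threshold of 0.05. The test was tried on data simulated with counting error only. That trial held no further spread between libraries, so it cannot show how the test behaves under such spread. The dispersion came from edgeR over 14965 genes. DESeq2 1.42.0 gave an alternative scaling. TPM was also rescaled over nuclear protein-coding genes as an alternative. Tests used scipy 1.17.1. Log ratios of TPM used a pseudocount of 1. The members and lists were chosen with earlier results of these data known. Values are given for members averaging 5 TPM or more, or called with a ratio over 1.5, and for lower members that define a class; for transcripts at 10% or more of these genes' TPM in either quantification; and for the 4 highest genes of each list and those called with a ratio over 1.5. Col4a1, Dag1 and other list genes follow this rule, but Tln1, Tln2, the individual cell type markers, Rtraf, Pelo, Hsd11b1, G0s2 and Cox6a2 were chosen after their values were seen. Sequences were cut from the GENCODE M21 transcripts; Lama3 sequence and the values of some genes that meet the rule are not reported here.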

Additional observations from a re-analysis of the deposited data

How the results depend on the processing

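No paired analysis was possible because the series has 1 group. The rank correlation of levels across the 40 genes was 0.988 between the quantifications. Among genes averaging 1 TPM or more, the second was higher by a median of 0.36 on the log2 scale over 12156 genes and of 0.27 over 28 members. Rescaling TPM over nuclear protein-coding genes raised all 40 levels by construction and left their order, with Itgb1 at 237 TPM in place of 111 TPM and Itga11 at 5.22 TPM in place of 2.45 TPM, past the 5 TPM used for naming. The second quantification gave Lama2 56.4%, Lamb2 46.7%, Lamc1 96.1%, Itga7 27.7% and Itgb1 77.8% of their classes, and Itga7-204 22.8% of its gene. Posterior mean TPM gave Lamc1 96.3% and Itgb1 78.0%. Expected counts in place of TPM, which favour long genes by construction, gave Lama2 62.2%, Lamb2 44.8%, Lamc1 98.8%, Itga7 22.1% and Itgb1 77.0%. Coding transcripts only, an alternative chosen after seeing the data, gave Lama2 57.7%, Lamc1 98.3% and Itga7 36.3%. The cause of these shifts was not tested beyond that. Leaving out 1 replicate gave 60.2% to 61.5% for Lama2, 53.5% to 56.9% for Lamb2, 96.5% to 97.0% for Lamc1, 30.1% to 34.9% for Itga7, 79.5% to 80.7% for Itgb1, 23.8% to 27.4% for Itgb1-204 and 33.7% to 35.3% for Itga7-204.

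Scaling by ERCC totals called 9052 genes in place of 3671, with 19 members higher in replicate 1 and 2 higher in replicate 2. Under it Itga5 and Itga6 turned to 0.22 each and Itgav to 0.09. Scaling by total counts added a call for Nid1 at 0.06, and DESeq2 size factors and other count minimums changed no member's call among those tested. The median absolute log2 ratio of members was 0.08 over those with a mean of at least 5 TPM, in place of 0.15. Depth limits what can be said of Itgad, Itgax, Itgae and Lama1, at 14 counts or fewer per library, and 2 libraries limit every SD.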
